A study of Mus musculus with 4 samples.

Results

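The collagen, protease and adhesion gene families were examined in mammary tumours of mice with and without a knockout of the microRNA miR-9. Members were the protein-coding genes of the deposited tables whose symbols begin with Col and a digit, or with Lama, Lamb, Lamc, Adam, Mmp, Timp, Fbln, Itga, Itgb, Cdh, Pcdh, Cldn, Thbs, Serpin or Lox, apart from Cdh2, Itga5, Mmp2 and Adamts4. This gave 40 of the 1142 listed genes. The knockout group held 2 tumour samples of MMTV-PyMT mice labelled miR-9 knockout, and the control group held 2 tumour samples of MMTV-PyMT mice labelled as lacking that knockout. All mice were females of mixed C57BL/6 background, controls were littermates, and the knockout is described as one of miR-9 exon 1. In MMTV-PyMT mice, which both groups were, a mammary tumour virus promoter drives the polyoma middle T oncogene in mammary epithelium. The sources used here do not give the age of the mice, the copy number of the knockout allele, which of the 3 miR-9 genes was deleted, or the number of animals behind a sample. P-values therefore measure only the spread between these samples, which may be technical.

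Collagens and laminins build the interstitial matrix and the basement membrane under epithelium, integrins anchor cells to them, and cadherins and claudins join cells to one another. Metalloproteases of the MMP, ADAM and ADAMTS families cut or process matrix and surface proteins, while TIMPs and many but not all serpins restrain proteases. In the mammary gland the basement membrane lies against the myoepithelial layer, and its breach marks invasion.

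miR-9 acts through its seed, bases 2 to 8 of the mature strand, which pairs with sites in messenger RNAs. The mature strands are shown because the knockout removes a source of them, with the seed in capitals (RefSeq, GRCm38.p6; each strand has the same sequence at Mir9-1, Mir9-2 and Mir9-3, on chromosomes 3, 13 and 7).
mmu-miR-9-5p: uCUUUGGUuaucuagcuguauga
mmu-miR-9-3p: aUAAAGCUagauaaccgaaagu

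The letters complementary to the miR-9-5p seed, ACCAAAG, were found on the transcript strand of the longest annotated 3' UTR (GENCODE M21) in 6 of 40 members (15%), against 156 of 1039 listed genes with an annotated 3' UTR (15%). Of the 6, 3 were higher in knockout tumours (Itga2, Adamts9 and Col4a3) and 3 lower (Loxl4, Adamts14 and a protocadherin). A match describes the letters and is not evidence of a working site. The matches of 5 members are shown for GRCm38, seed match in capitals, because their letters can pair with the miR-9-5p seed; all lie in the exonic sequence of the 3' UTR.
Itga2 (chr13:114836302-114836326, minus strand): ggtagaaagACCAAAGacatcatat
Adamts9 (chr6:92772829-92772853, minus strand): ctttccaagACCAAAGagattagga
Col4a3 (chr1:82719440-82719464, plus strand): aaggctaggACCAAAGgaaacttcc
Adamts14 (chr10:61198026-61198050, minus strand): cacacacacACCAAAGacaaagcag
Loxl4, first match (chr19:42594987-42595011, minus strand): tcttggaggACCAAAGgacagacga
Loxl4, other match (chr19:42594526-42594550, minus strand): tcagatttaACCAAAGccacttcac

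The match to the miR-9-3p seed, AGCTTTA, was present in 3 of 40 members (7.5%), against 130 of 1039 listed genes (12.5%). Itga8 and Serpinb9 were higher in knockout tumours, and the third, a protocadherin, was lower.
Itga8 (chr2:12107952-12107976, minus strand): gcttattacAGCTTTAttgtccact
Serpinb9 (chr13:33016593-33016617, plus strand): tgtctctgtAGCTTTAtctattttg

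The tables held normalised reads, that is, gene read counts divided by a size factor per sample, and the smallest difference between group means was 2-fold. They are therefore a list chosen by the study on these samples, and a call of a single gene adds little to its listing. The listed genes held 694925 and 697334 reads in knockouts 1 and 2 and 512574 and 458335 reads in controls 1 and 2. The table held 0 of 6 transcripts of the miR-9 loci, so the deletion itself was not checked. Of 10 luminal mammary epithelium markers fixed, 5 were in the table, with summed levels of 19549 and 23059 normalised reads in the knockouts and 4666 and 8005 in the controls. For this and each marker list below, the levels of absent markers are not known. The markers present all differed at least 2-fold, as every listed gene did, so their sums do not represent the whole list. Because whole tumours were sequenced, fewer cells of a type and less RNA per cell cannot be told apart for any gene below.

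By limma, at an adjusted p under 0.05, knockout tumours had higher levels of 28 of the 40 members and lower levels of 12. Of all listed genes 99.8% were called, 61.3% higher and 38.5% lower, so the 70% of members that were higher stand beside a background of 61.3%. In all 40 members the knockouts did not overlap with the controls, which held for 99.9% of the table. The median log2 change was 1.50 over the members and 1.23 over the table. Without knockout 1 or without knockout 2, 0 members were called by limma, although 17 and 18 had an unadjusted p under 0.05. Without control 1, 25 were called higher and 9 lower, and without control 2, 27 and 12. A two-sided exact permutation test of 2 against 2 samples cannot go below p = 0.333.

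The size of a change also depended on the scaling. With the deposited size factors, 28 members were called higher, against 25 with upper-quartile, 14 with TMM and 9 with RLE factors computed from the listed genes, while 12 were called lower under each. These scalings moved the median log2 change of the table by -0.42, -0.74 and -1.09. TMM and RLE take most genes as unchanged, whereas all listed genes differed at least 2-fold between group means, more of them upward. Such factors shrink rises and enlarge falls, so a call lost or kept under them does not tell whether a gene changed. The 9 called higher under every scaling were Col23a1, Col17a1, Col7a1, Lamc3, Adamtsl1, Serpinf1, Cdh19, Cldn6 and Cldn10. The other 5 called under TMM were Lama3, Adam23, Adamts17, Itga2 and Pcdhga6.

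**Figure D1:**
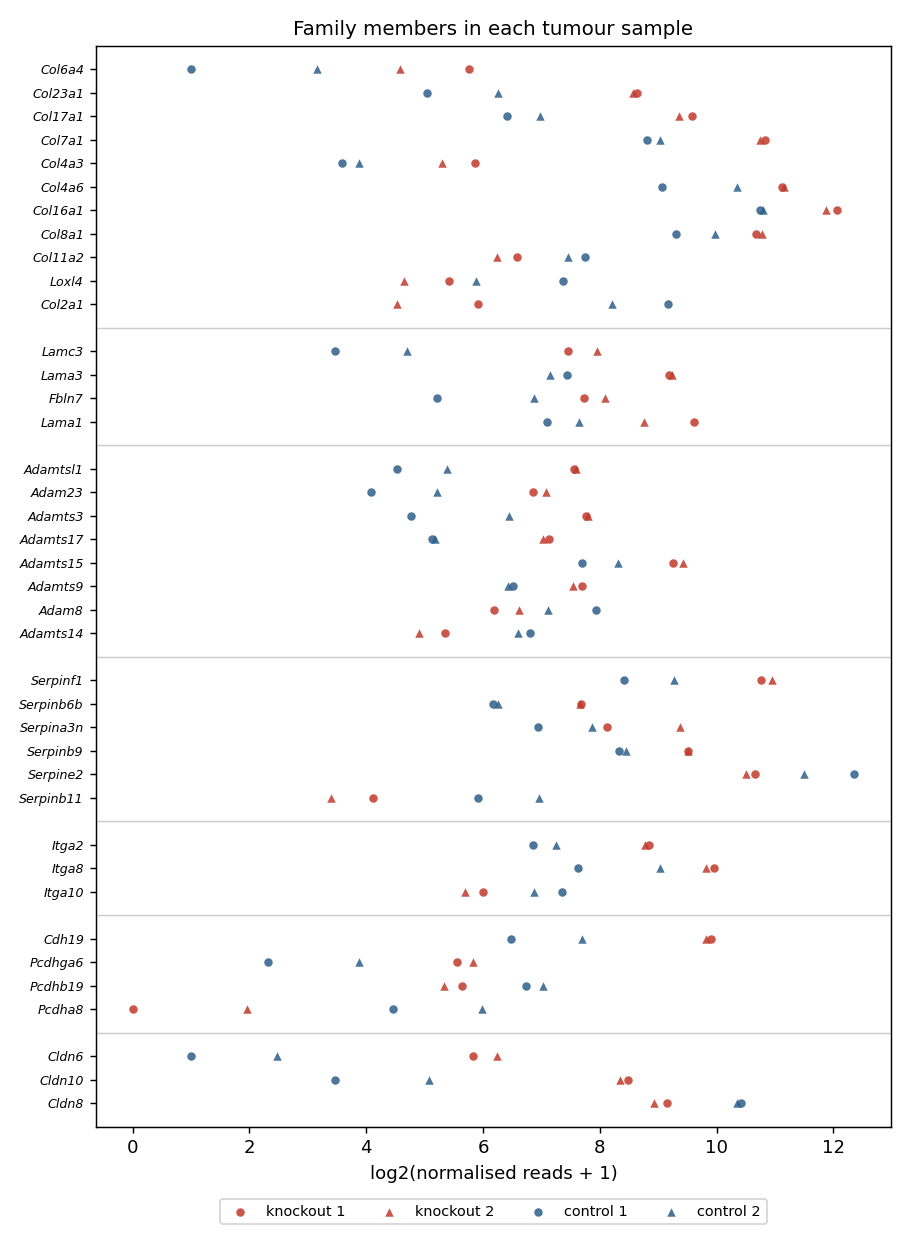
Level of the members reported here in each sample, as log2(normalised reads + 1), grouped by role with grey lines between groups. Knockouts are red and controls blue, and in every row the 2 red points lie on one side of the 2 blue points.

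Collagens formed the largest group, with 10 of the 45 Col genes of GENCODE M21 in the table and 1 of 6 Lox genes. Of all protein-coding genes in that annotation 4.75% were in the table, and of the genes of all these families 10.7%. Family counts here and below leave out Cdh2, Itga5, Mmp2 and Adamts4, which the share of all protein-coding genes does not. Of the 11 members, Col17a1, Col7a1, Col23a1, Col4a6, Col4a3, Col16a1, Col8a1 and Col6a4 rose, and Col2a1, Col11a2 and Loxl4 fell.

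Col17a1 (chr19:47646344-47692094, minus strand, GRCm38, as for all positions) encodes the transmembrane collagen of hemidesmosomes, which rivet basal epithelial cells to the basement membrane. It had 764 and 657 normalised reads in the knockouts, against 84.2 and 125 in the controls, a 6.78-fold difference (log2 change 2.77 ± 0.36 SE; limma adjusted p = 0.00157). The 2 knockouts were close to each other and far above both controls.

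Col7a1, whose product forms the anchoring fibrils below that membrane, averaged 1761 ± 80.9 in the knockouts and 485 ± 50.8 in the controls (SD, n = 2 each, as for all values of this form), 3.63-fold higher. Col23a1, another transmembrane collagen, had 398 and 378 in the knockouts, against 32.1 and 75.7 in the controls, 7.2-fold higher (log2 change 2.95 ± 0.46 SE). Both changes were well outside the range of either pair.

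Col4a6 and Col4a3 encode chains of type IV collagen, the network of basement membranes. Col4a6 averaged 2262 ± 37.4 in the knockouts and 918 ± 542 in the controls, and Col4a3 averaged 47.6 ± 13.1 in the knockouts and 12.3 ± 1.79 in the controls. The controls for Col4a6 were 535 and 1301, so its log2 change was 0.80 without control 1 and 1.44 with all samples. Neither gene was called under TMM or RLE.

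Col16a1, a fibril-associated collagen, was the most abundant member of the group, with 4253 and 3742 in the knockouts, against 1710 and 1764 in the controls, 2.3-fold higher (log2 change 1.20 ± 0.31 SE; limma adjusted p = 0.009). Col8a1, a short-chain collagen of vessel walls and other matrices, averaged 1687 ± 91.0 in the knockouts and 818 ± 261 in the controls. These were the smallest rises among the collagens: neither was called under TMM or RLE, and the log2 change of Col8a1 turned to -0.01 under RLE, against 1.08 with the deposited scaling.

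Col6a4, a chain of microfibrillar type VI collagen, was near the limit of detection in the controls. It had 53.3 and 23.0 in the knockouts, against 1.00 and 7.91 in the controls (log2 change 3.10 ± 0.89 SE). Its call was lost without control 1 (log2 change 2.02; limma adjusted p = 0.0668) and under TMM (0.0562).

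Col2a1 (chr15:97975602-98004695, minus strand) encodes the main fibrillar collagen of cartilage, and Col11a2 a chain of the type XI collagen that is assembled into the same fibrils. Col2a1 fell 10.6-fold, with 59.6 and 22.1 in the knockouts, against 571 and 295 in the controls (log2 change -3.46 ± 0.55 SE; limma adjusted p = 0.00259). Col11a2 had 94.9 and 74.8 in the knockouts, against 214 and 174 in the controls, 2.29-fold lower. In both genes every knockout lay below every control. Of 9 skeletal muscle markers fixed, 7 were in the table and all 7 were lower as well, with summed levels of 62.3 and 34.5 in the knockouts and 574 and 911 in the controls, and their part in the fall of these collagens was not tested.

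Loxl4 encodes a lysyl oxidase, an enzyme that cross-links collagen and elastin. It had 41.6 and 24.0 in the knockouts, against 164 and 57.6 in the controls (log2 change -1.59 ± 0.60 SE; limma adjusted p = 0.0274). Its fall rested on control 1, since without that sample the log2 change was -0.85 and the call was lost (limma adjusted p = 0.19).

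The 3 laminin chains and the fibulin in the table all rose, out of 11 Lama, Lamb and Lamc genes and 4 Fbln genes in the annotation. Laminins are heterotrimers of an alpha, a beta and a gamma chain and are the first layer of the basement membrane. Under TMM 2 of the 4 were called higher and under RLE only Lamc3, with no change of sign.

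Lamc3 (chr2:31887291-31946539, plus strand), the gamma-3 chain, had 175 and 247 in the knockouts, against 10 and 24.9 in the controls, 12.1-fold higher (log2 change 3.63 ± 0.54 SE; limma adjusted p = 0.00206). Lama3, the alpha chain of the laminin that hemidesmosomes bind, had 581 and 599 in the knockouts, against 172 and 141 in the controls, 3.76-fold higher. The Lama3 knockouts differed by less than the Lama3 controls.

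Lama1, the alpha-1 chain typical of embryonic and epithelial basement membranes, had 783 and 429.5 in the knockouts, against 136 and 200.0 in the controls, 3.61-fold higher. Without control 1 its call was lost (limma adjusted p = 0.0552). Fbln7, a secreted fibulin of the matrix, had 212 and 270.4 in the knockouts, against 36.1 and 116 in the controls, and its log2 change was 1.04 without control 1 and 1.87 with all samples.

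The basal and myoepithelial layer is one source of type IV and VII collagens and of laminins in mammary tissue. Of 9 myoepithelial or smooth muscle markers fixed, 7 were in the table, 6 higher and 1 lower. Their summed levels were 29308 and 28717 in the knockouts and 7538 and 9480 in the controls. The lower one was Krt14, with 1344 and 1396 in the knockouts, against 3992.5 and 2526 in the controls. Krt5 was among the higher ones, with 2140 and 1892 in the knockouts, against 277 and 429 in the controls. Of 9 fibroblast markers only Dcn was in the table, higher in the knockouts (2607 and 4116, against 574 and 1240 in the controls), and none of 7 endothelial markers was. Of 8 adipocyte markers 3 were in the table, all higher, with summed levels of 732 and 1830 in the knockouts and 383 and 489 in the controls. Their part in the changes of matrix genes was not tested.

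**Figure D2:**
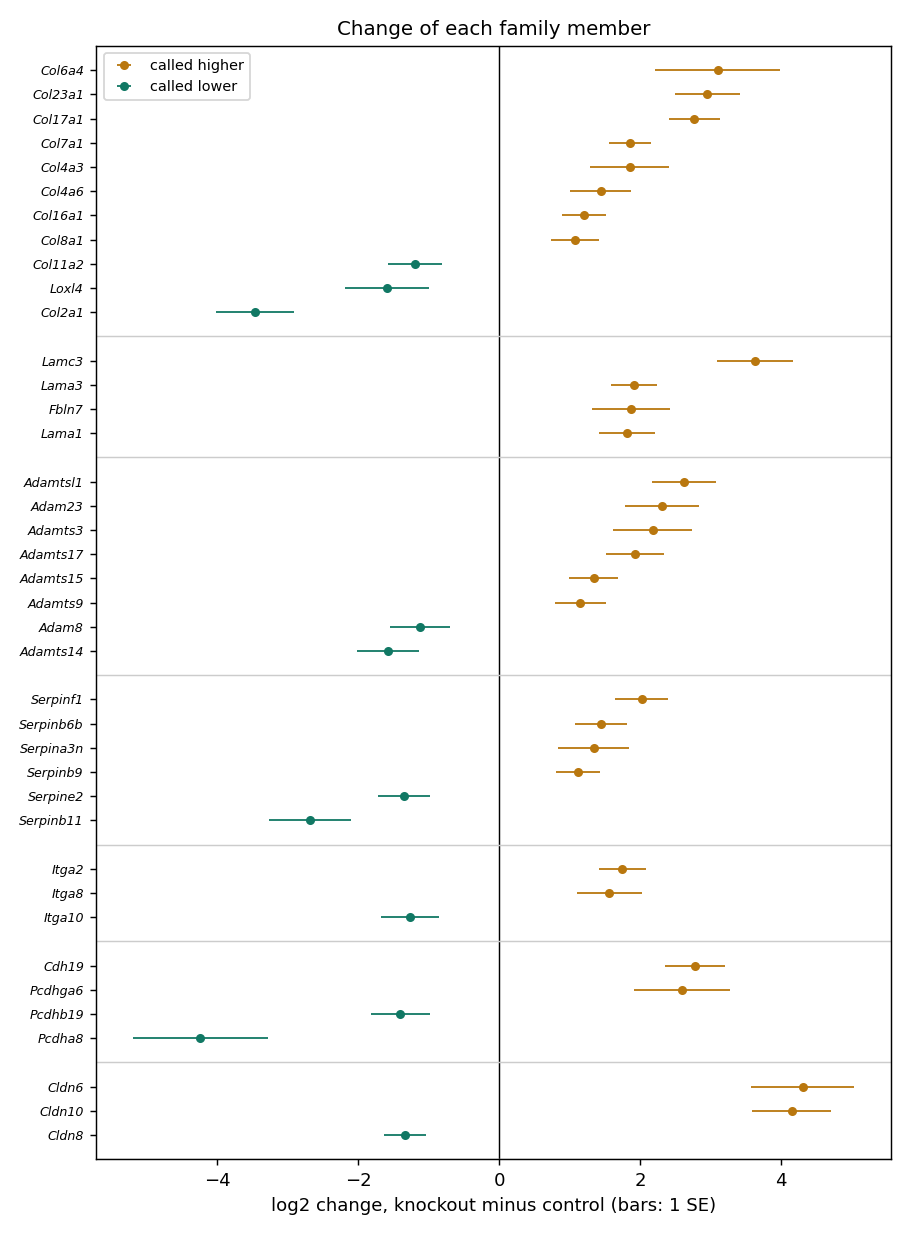
Log2 change (knockout minus control) of the members reported here, with bars of 1 SE from limma, in the same order as the levels by sample. The claudins Cldn6 (4.31) and Cldn10 (4.15) lie farthest to the right, and Pcdha8 (-4.24) and Col2a1 (-3.46) farthest to the left, an order that holds for a pseudocount of 1 but not of 5.

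Of the metalloproteases, 8 of the 57 Adam, Adamts and Adamtsl genes were in the table and no Mmp gene other than the one outside the rule; the levels of the absent genes are not known here. The same holds for Timp, Thbs and Itgb genes, of which 0 were in the table. Of the 8, 6 rose and 2 fell.

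Adamts3 and Adamts14 both encode enzymes that remove the amino-terminal propeptide of fibrillar procollagens, and they changed in opposite directions. Adamts3 had 215 and 221 in the knockouts, against 26.1 and 85.9 in the controls, 3.9-fold higher (log2 change 2.18 ± 0.56 SE). Adamts14 had 39.8 and 28.8 in the knockouts, against 110.2 and 96.0 in the controls, 3.01-fold lower (log2 change -1.58 ± 0.44 SE). Per kilobase of gene length, Adamts3 was at 40.2 and Adamts14 at 6.59 normalised reads in the knockouts, while in the controls they were at 10.3 and 19.8. The order of their levels was therefore opposite in the 2 groups, but in control 2 they were close, at 85.9 for Adamts3 and 96.0 for Adamts14. The rise of Adamts3 was not called under TMM (limma adjusted p = 0.0551) or RLE, and its log2 change was 1.34 without control 1.

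Adamts15 and Adamts9 are proteases that cut the proteoglycan versican. Adamts15, with the highest mean in this group over the 4 samples, had 609.9 and 684 in the knockouts, against 205 and 316 in the controls, 2.48-fold higher. Adamts9 averaged 196 ± 15.5 in the knockouts and 87.5 ± 3.86 in the controls. Neither was called under TMM or RLE. Adamts9 shares 9.18% of its exon bases with A730049H05Rik on the opposite strand, and the counting is not stated to use strand, so reads there cannot be told apart.

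Adamtsl1, an ADAMTS-like matrix protein without a protease domain, had 188 and 192 in the knockouts, against 22 and 40.7 in the controls, 6.05-fold higher (limma adjusted p = 0.00312). Adam23, a surface protein without protease activity, had 115 and 134 in the knockouts, against 16 and 36.2 in the controls, 4.77-fold higher. Adamts17 averaged 134 ± 6.88 in the knockouts and 34.5 ± 0.671 in the controls.

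Adam8, a surface protease best known from leukocytes, had 72.3 and 96.8 in the knockouts, against 245 and 137 in the controls, 2.25-fold lower. Its adjusted p of 0.0305 from limma was the largest among the members, and its call was lost without control 1 (log2 change -0.70; limma adjusted p = 0.121). Of 8 macrophage markers fixed, 6 were in the table and all 6 were higher. Their summed levels were 35961 and 43072 in the knockouts and 9683 and 16681 in the controls. Apoe alone held 28373 and 33805 of these in the knockouts and 6562 and 11799 in the controls. The part of the macrophage markers in the fall of Adam8 was not tested.

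Of 61 Serpin genes 7 were in the table, 4 higher and 3 lower in knockout tumours. Serpine2, protease nexin 1, an inhibitor of thrombin and urokinase, had 1609 and 1445 in the knockouts, against 5249 and 2894 in the controls, 2.67-fold lower, and had the highest mean of the serpins over the 4 samples. Plaur, the receptor of urokinase, was also lower, with 74.1 and 53.7 in the knockouts, against 301 and 120 in the controls.

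Serpinb11, an intracellular serpin, had 16.3 and 9.59 in the knockouts, against 59.1 and 124 in the controls, 7.09-fold lower. Both knockout values rest on few reads.

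Serpinf1 (chr11:75409769-75422701, minus strand), pigment epithelium-derived factor, is a secreted serpin that restrains vessel growth. It had 1727 and 1984 in the knockouts, against 338 and 615 in the controls, 3.9-fold higher (log2 change 2.02 ± 0.37 SE; limma adjusted p = 0.00364). Per kilobase it was the highest of the members in the knockouts, at 786 normalised reads, against 202 in the controls. Col16a1 came next in the knockouts, at 592, whereas the highest in the controls were Cldn8, at 565, and Serpine2, at 491.

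Serpinb9, the intracellular inhibitor of granzyme B, averaged 728 ± 1.54 in the knockouts and 334 ± 19.3 in the controls, and Serpinb6b, of the same clade, had 203 and 200.4 in the knockouts, against 71.2 and 75.7 in the controls. Replicates of both agreed closely. Neither was called under TMM or RLE, which does not tell whether they changed. Of 6 T and NK cell markers fixed, 3 were in the table and all 3 were higher, with summed levels of 216 and 224 in the knockouts and 50.1 and 71.2 in the controls. Their part in the serpin changes was not tested.

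Serpina3n, a secreted serpin of the acute-phase response, had 277 and 659 in the knockouts, against 122 and 232 in the controls. It was the least stable rise: the groups did not overlap, but knockout 1 and control 2 were close, and the call was lost without control 1 (limma adjusted p = 0.277), without control 2 (0.0765) and under upper-quartile, TMM and RLE scaling. Without knockout 2 its log2 change was 0.71, against 1.34 with all samples. Serpinb6b, Serpinb9 and Serpina3n lie in clusters of similar paralogues, so reads may be split among copies.

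Of 17 Itga genes other than Itga5, 3 were in the table, all of them alpha chains that pair with integrin beta-1. Itga2 (chr13:114833081-114932100, minus strand), a collagen receptor of epithelial cells, had 458 and 438 in the knockouts, against 115 and 151 in the controls, 3.36-fold higher (log2 change 1.75 ± 0.34 SE; limma adjusted p = 0.00434). Itga8, a receptor for nephronectin and fibronectin found in smooth muscle and mesenchyme, had 989 and 904 in the knockouts, against 196 and 523 in the controls. Without control 1 the log2 change of Itga8 was 0.85, against 1.56 with all samples, and under RLE neither receptor was called.

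Itga10, the type II collagen receptor of chondrocytes, had 63.3 and 50.8 in the knockouts, against 162 and 116 in the controls, 2.44-fold lower. Both knockouts were below both controls. Its call was lost without control 1 (limma adjusted p = 0.0532), and 33.5% of its exon bases are shared with Gm42957 on the same strand, so its counts are uncertain.

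Cdh19 was the single member among 27 Cdh genes other than Cdh2. It encodes a cadherin of the Schwann cell lineage and had 961 and 897 in the knockouts, against 88.2 and 206 in the controls, 6.32-fold higher (log2 change 2.78 ± 0.43 SE; limma adjusted p = 0.00248). Of 6 Schwann cell markers fixed, of which Cdh19 is one, 4 were in the table, 3 higher and 1 lower, with summed levels of 1510 and 1528 in the knockouts and 776 and 1533 in the controls, and their part in the rise of Cdh19 was not tested.

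Protocadherins are surface proteins, many of them encoded in clusters on chromosome 18, and 3 of 69 Pcdh genes were in the table. Pcdha8 had 0 and 2.88 in the knockouts, against 21 and 62.1 in the controls. These were 3 reads in the knockouts and 76 in the controls, a ratio of controls to knockouts of 28.9 (exact Clopper-Pearson 95% interval 9.53 to 143, counting error only). The log2 change of Pcdha8 depended on the pseudocount, at -6.06, -4.24 and -2.74 with 0.1, 1 and 5. Pcdhb19 had 48.8 and 39.3 in the knockouts, against 105 and 129.9 in the controls, 2.67-fold lower.

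Pcdhga6 went the other way, with 46.1 and 55.6 in the knockouts, against 4.01 and 13.6 in the controls, 5.79-fold higher. Pcdha8 shares 53.6% of its exon bases with the other genes of the alpha cluster, and Pcdhga6 44.8% with others of the gamma cluster. The sources used here do not say how reads on the shared exons were counted, so the levels of both are uncertain. The 3' UTR of Pcdhb19 holds the miR-9-5p seed match and that of Pcdha8 the miR-9-3p one.

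Claudins, which form the barrier and the ion pores of tight junctions, had 3 of 35 Cldn genes in the table, 2 higher and 1 lower. Cldn10 (chr14:118787908-118875489, plus strand), a pore-forming claudin, had 358 and 325 in the knockouts, against 10 and 32.8 in the controls, 16-fold higher (log2 change 4.15 ± 0.56 SE; limma adjusted p = 0.00169). Cldn6 (chr17:23679249-23682446, plus strand), a claudin of embryonic epithelia, had 56.0 and 74.8 in the knockouts, against 1.00 and 4.52 in the controls, 23.7-fold higher (log2 change 4.31 ± 0.73 SE). The control level of Cldn6 rests on very few reads. With a pseudocount of 5 the log2 change was 3.86 for Cldn10 and 3.21 for Cldn6, against 3.33 for Lamc3.

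Cldn8, a barrier-forming claudin, moved the other way. It had 567 and 485 in the knockouts, against 1359 and 1303 in the controls, 2.53-fold lower (log2 change -1.34 ± 0.30 SE; limma adjusted p = 0.00675). Per kilobase, Cldn8 was at 223 and Cldn10 at 132 normalised reads in the knockouts, while in the controls they were at 565 and 8.26.

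**Figure D3:**
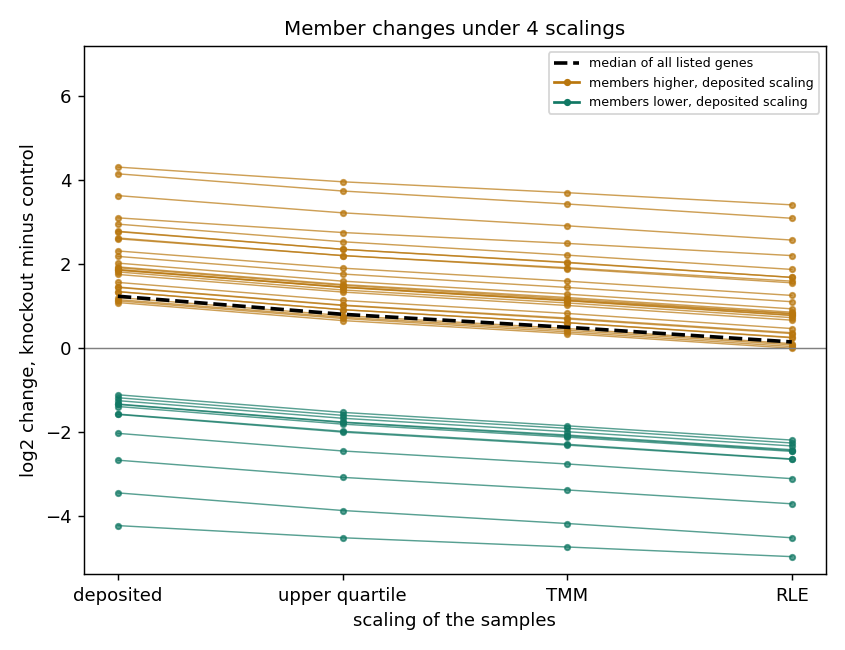
Log2 change of each member (vertical axis) under the deposited size factors and under 3 scalings computed from the listed genes (horizontal axis), with the median of the 1142 listed genes dashed. The 12 lower members move farther from 0 at each step, and the 28 higher ones move toward it together with the median, which goes from 1.23 with the deposited factors to 0.14 with RLE.

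Other genes of the same systems were taken from a list of 129 matrix and adhesion partners, of which 25 were in the table, 16 higher and 9 lower. The share higher, 64%, was near the 61.3% of all listed genes. All 25 kept their sign under each scaling, although 7 were called higher under TMM and 6 under RLE. The largest rises were in Reln (679 and 741 in the knockouts, against 9.02 and 42.9 in the controls), a secreted matrix glycoprotein, Fmod, and Dsc3. Fmod, fibromodulin, a proteoglycan that binds collagen fibrils, had 1689 and 2059 in the knockouts, against 87.2 and 247 in the controls, 11.2-fold higher. Dsc3, a desmosomal cadherin of basal epithelium, had 72.3 and 72.9 in the knockouts, against 4.01 and 7.91 in the controls, 12.2-fold higher.

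Of the enzymes on the list that hydroxylate new collagen chains, P4ha1, P4ha2 and Plod2 were in the table, and each was lower. P4ha3, Plod1 and Plod3 were on the list but not in the table, so their levels are not known. P4ha2, a prolyl hydroxylase, averaged 166 ± 18.8 in the knockouts and 788 ± 175 in the controls, 4.75-fold lower, and Plod2, a lysyl hydroxylase, averaged 554 ± 76.1 in the knockouts and 1805 ± 562 in the controls, 3.26-fold lower. P4ha1, another prolyl hydroxylase, averaged 430 ± 33.8 in the knockouts and 906 ± 410 in the controls. Vcan, the proteoglycan versican, was higher, at 1803 and 1525 in the knockouts, against 311 and 594 in the controls.

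The controls were less alike than the knockouts. Over the 40 members the median absolute difference in log2(value + 1) was 0.22 between the knockouts and 0.86 between the controls, against 0.25 and 0.62 over the whole table. More than 2-fold differences between replicates were seen for 4 members in the knockouts and 16 in the controls. Of the 28 members that were higher, 26 had control 2 above control 1, and of the 12 that were lower, 9 had control 1 above control 2. Over the whole table these counts were 568 of 700 and 295 of 440. For most members control 2 therefore lay between control 1 and the knockouts.

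**Figure D4:**
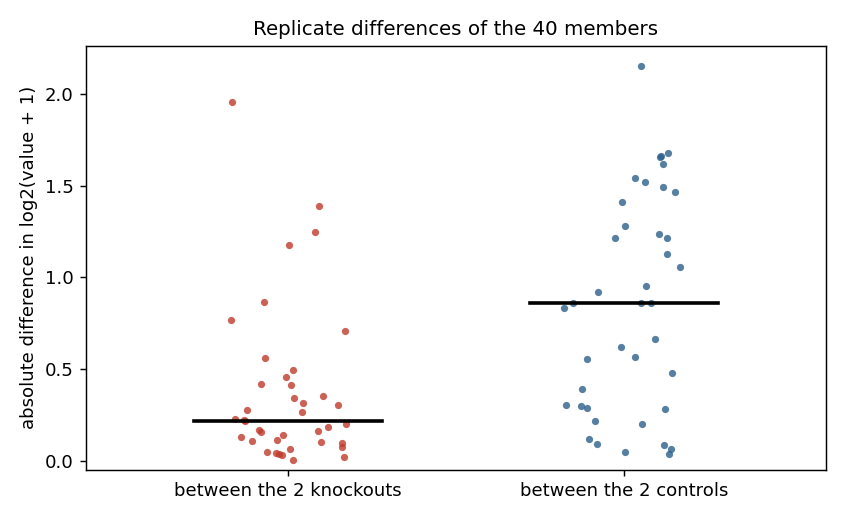
Absolute difference in log2(value + 1) between the 2 samples of a group, one point per member, with the median as a bar. Most members lie below 0.5 between the knockouts, where the median is 0.22, and the points spread up to 2.15 between the controls, where the median is 0.86.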

How the data were processed

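Bulk RNA-seq of 2 knockout and 2 control tumour samples, grouped by their titles, was analysed. Per the labels' protocols, total RNA went into Illumina TruSeq RNA libraries. Bowtie 0.12.2 and the builds hg38, GRCm38 and mm10 appear in the submitters' processing notes, with no role for each. Not given in the sources used here are the counting tool, the strand setting and the listing criteria. The signal deposited by the authors is a read count per gene over a size factor of the sample, since all values were whole multiples of the smallest one above 0, to within 1e-06 reads. The value of 1 read in control 1, 1.00215, hardly differs from 1, which makes its recovered reads less sure. Relative depth was 1.11 and 1.04 in the knockouts and 0.998 and 0.885 in the controls.

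The test was limma 3.58.1 in R 4.3.3, trend included, applied to log2(value + 1), with genotype as the single term and Benjamini-Hochberg adjustment over 1142 genes at 0.05. Genes with a mean under 0.5 were to be removed, and 0 were. On that scale log2 changes understate the change of low genes; folds are ratios of group means. Levels per kilobase use the length in the tables. Coordinates of all 40 members matched GENCODE M21 (GRCm38). Seed matches were searched in the longest 3' UTR per gene. The script was tested on simulated data.

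Members and lists were chosen with earlier results of these data known. The values of 1 member are not reported here, although it is included in the counts and medians. Values by sample are given, in each role group and direction, for the 3 largest changes (higher group mean of 10 or more, groups not overlapping), and for the most abundant member. Other members are given by group means, and Plaur, Vcan and P4ha1 were named after their values were seen. Alternatives were pseudocounts of 0.1 and 5, no filter, a minimum mean of 5, TMM, RLE and upper-quartile scaling, edgeR 4.0.16 and DESeq2 1.42.0 on recovered reads, a replicate block, and leaving out each sample. Figures used Python 3.11.15 and matplotlib 3.10.9.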

Additional observations from a re-analysis of the deposited data

How the results depend on the processing

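In all 40 members the groups did not overlap, so among the alternatives only a change of scaling could turn a sign. With TMM, RLE and upper-quartile factors every member kept its sign, except Col8a1, whose log2 change was -0.01 with RLE factors. These factors moved the median of all listed genes by -1.09, about the size of the change of Col8a1 with the deposited scaling (1.08). Pseudocounts of 0.1 and 5, edgeR and DESeq2, all with the deposited scaling, gave 28 members higher and 12 lower, as the main test did. The lowest mean of a listed gene was 6.4. A minimum mean of 5 and no filter therefore removed no gene and only repeated the main test. With TMM factors 278 listed genes and 14 members were called higher and the median log2 change of members was 0.76; with RLE factors these were 171, 9 and 0.41. Of the listed genes called, 38.8% were higher with TMM, 28.1% with RLE and 54.4% with upper-quartile factors, against 61.4% with the deposited ones; of the members called these shares were 53.8%, 42.9% and 67.6%, against 70%. Leaving out 1 sample gave 13 to 665 listed genes higher, 0 to 405 lower, 0 to 27 members higher, 0 to 12 lower and a median log2 change of members of 1.19 to 1.87; the lowest counts came without either knockout, which leaves 1 residual degree of freedom and a lone knockout assumed to vary like the controls. The replicate numbers are not stated to pair samples, and same-numbered samples deviated together with r = 0.0429 across genes. With the replicate block 700 listed genes and 28 members were called higher and 442 and 12 lower. Under 20 reads in at least 1 sample limit Cldn6, Cldn10, Col6a4, Col4a3, Lamc3, Adam23 and Pcdhga6 in the controls and Serpinb11 and Pcdha8 in the knockouts.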
